A study of Rattus norvegicus with 12 samples.

Results

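Astrocytes in culture are named by a small set of transcripts, and 9 of these, *Gfap*, *Aqp4*, *Slc1a3*, *Aldoc*, *Slc4a4*, *Fgfr3*, *Fabp7*, *Vim* and *Mfge8*, were followed here across 12 cultures of adult rat brain. The rule names them as markers of astrocytes and uses no measured value, but it was set with earlier results of these data known. They are 9 of the 15478 genes that had at least 1 count, out of 17941 genes listed. All cultures came from young adult female Wistar rats. The 6 gmASTR cultures were grown from cerebral cortex freed of meninges, and the 6 wmASTR cultures from the non-cortical rest of the brain without the amygdala, which holds white matter tracts but also hippocampus, thalamus and basal ganglia, so that wmASTR stands for mainly, not purely, white matter cells. Both kinds of culture were prepared side by side from the same animals, were kept for 20 days in flasks, and were passaged with trypsin at least once. They carried no genetic change and received no agent. The paper describes the 6 replicates as independent culture preparations. Whether each replicate is a separate animal is not stated in the sources used here, so that the p-values measure the spread between these cultures.

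Gfap and vimentin are intermediate filament proteins, of which Gfap is the classical marker of differentiated and reactive astrocytes and vimentin is shared with immature glia, fibroblasts and many other cells. Aqp4 is the water channel of the astrocytic endfeet, Slc1a3 (Glast) takes up glutamate, Slc4a4 carries sodium and bicarbonate together, and Aldoc is the brain form of the glycolytic enzyme aldolase. Fgfr3 is a receptor for fibroblast growth factors, Fabp7 binds fatty acids in radial glia and immature astrocytes, and Mfge8 is a secreted protein that bridges dying cells and the phagocytes that take them up. *Vim* and *Mfge8* transcripts are also made by mesenchymal and vascular cells, and *Slc4a4* by several epithelia.

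RNA was sequenced from the 3′ end of polyadenylated transcripts, so that counts were not divided by length, and values are given as CPM, the count of a gene per 1000000 counts of its library. How completely the 3′ end of each gene is annotated was not checked, which limits comparisons of levels between genes, and also between cultures where these use different 3′ ends or splice variants of a gene. A count of 0 thus speaks only of the 3′ ends that were counted. The library totals ran from 4920488 to 7207118 counts, and 3 counts, used here as the floor for detection, correspond to 0.416 to 0.610 CPM. Region differences were tested with the quasi-likelihood test of edgeR with Benjamini-Hochberg adjustment over all 15478 genes (FDR, called below 0.05). A positive log2 fold change (log2FC) means more transcript in gmASTRs. Since these are bulk samples, fewer cells of a type and less RNA per cell cannot be told apart.

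Of the 9 genes, 6 were called, against 7.73% of all genes tested (1197 of 15478). *Slc4a4* was the 1 gene called with more transcript in gmASTRs, and *Gfap*, *Aqp4*, *Slc1a3*, *Fabp7* and *Mfge8* were called higher in wmASTRs, beside background shares of 3.46% and 4.28% of all genes in these directions. *Aldoc*, *Fgfr3* and *Vim* were not called. The median log2FC of the 9 genes was -1.42, and that of all genes tested was -0.026. The chance of a call moves with the level of a gene: 16.9% of genes with a mean of at least 20 CPM were called and 2.90% of those below, and *Gfap*, *Aqp4*, *Slc1a3*, *Fgfr3*, *Fabp7* and *Aldoc* lie below. For 5 of the 9 genes (*Gfap*, *Aqp4*, *Fabp7*, *Mfge8* and *Vim*) no gmASTR culture overlapped with a wmASTR culture, which was seen in 3.99% of all genes. *Vim* lay higher in gmASTRs (1.79% of all genes) and the other 4 in wmASTRs (2.20% of all genes).

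**Figure D1:**
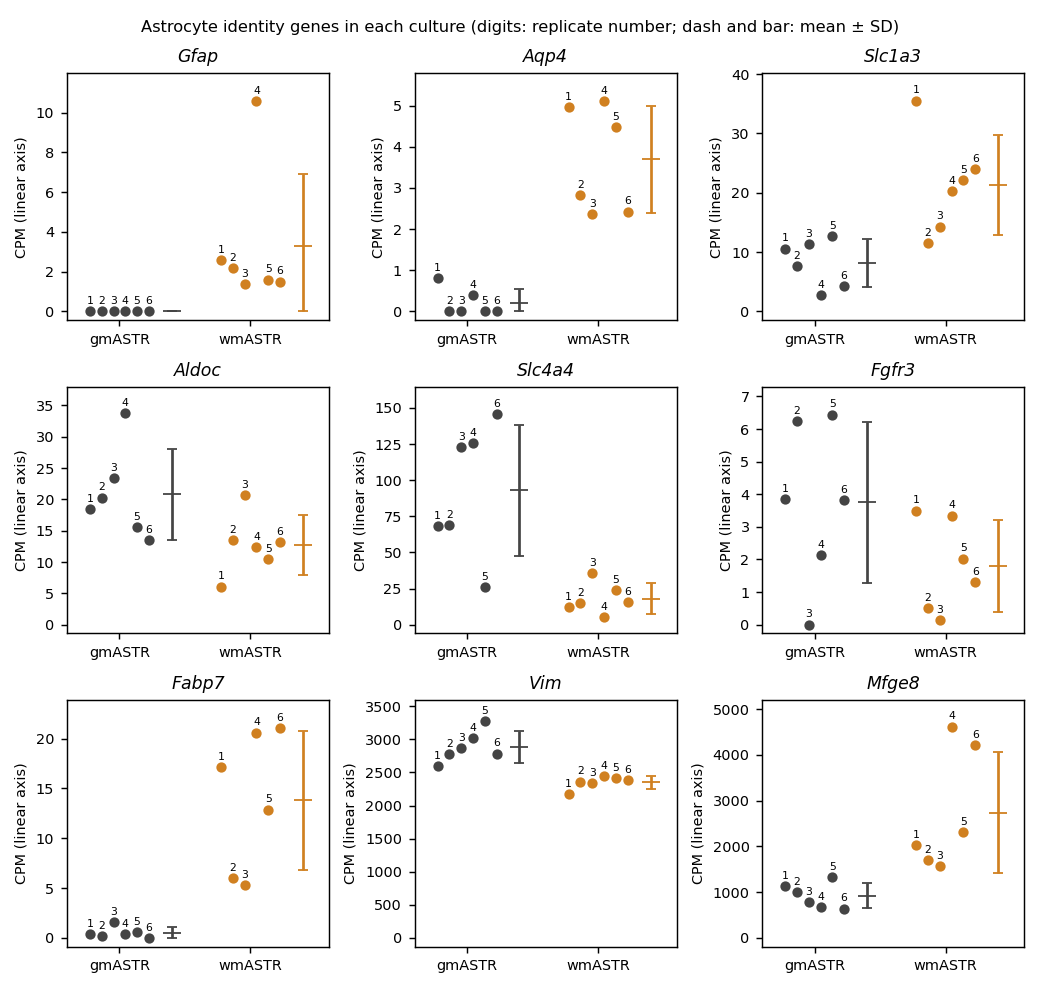
CPM of each of the 9 genes in the 6 gmASTR (grey) and 6 wmASTR (orange) cultures, each panel with its own linear axis from 0. Points are cultures with their replicate number, the dash is the mean and the bar the SD, cut at 0. *Gfap* lies at 0 in all 6 gmASTR cultures, and *Slc4a4* is below 40 CPM in every wmASTR culture.

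To show what the regulatory sequence in front of genes that differed in opposite directions looks like, the 250 bases before the RefSeq start (assembly GRCr8, given 5′ to 3′ on the strand of the gene) are printed for *Gfap* and *Fabp7*, which were higher in wmASTRs, and for *Slc4a4*, which was higher in gmASTRs. Capitals mark each CG dinucleotide. The windows are chr10:88361662-88361911 (minus strand), chr20:37669356-37669605 (plus strand) and chr14:19468283-19468532 (minus strand).
Gfap: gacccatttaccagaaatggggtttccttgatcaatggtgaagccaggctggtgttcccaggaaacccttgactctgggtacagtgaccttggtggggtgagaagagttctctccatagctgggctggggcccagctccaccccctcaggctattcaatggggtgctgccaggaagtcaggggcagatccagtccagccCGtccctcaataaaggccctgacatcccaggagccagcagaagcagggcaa
Fabp7: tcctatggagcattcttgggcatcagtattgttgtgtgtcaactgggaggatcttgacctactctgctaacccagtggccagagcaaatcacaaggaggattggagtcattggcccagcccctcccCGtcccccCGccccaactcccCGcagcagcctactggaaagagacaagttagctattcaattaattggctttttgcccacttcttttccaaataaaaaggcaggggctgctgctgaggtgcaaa
Slc4a4: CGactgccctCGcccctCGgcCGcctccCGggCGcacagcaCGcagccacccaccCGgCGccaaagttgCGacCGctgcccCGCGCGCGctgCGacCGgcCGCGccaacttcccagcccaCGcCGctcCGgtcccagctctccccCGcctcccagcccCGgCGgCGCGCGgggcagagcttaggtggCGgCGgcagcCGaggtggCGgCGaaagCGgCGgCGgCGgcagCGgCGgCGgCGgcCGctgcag

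The windows of the 3 genes differ in base composition. That of *Gfap* is 57.6% G or C and holds 1 CG, and 17.6% of the 27457 genes with a window have as few or fewer. That of *Fabp7* is 51.6% G or C, close to the median of 52.0% over all genes, and holds 3 CG. The *Slc4a4* window is 80.8% G or C and holds 42 CG, a number that 99.3% of genes do not exceed. RefSeq windows were matched for all 9 genes by symbol, and the first entry was taken for *Slc1a3* (3 entries) and *Aqp4* (2 entries). *Fgfr3* is the next richest in CG (26), and *Slc1a3* (9), *Aldoc* (6), *Vim* (11), *Mfge8* (12) and *Aqp4* (4) lie between. Hence the genes higher in wmASTRs range from 1 to 12 CG, and base composition was not tested against the region difference.

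Beside CG, 6 short motifs were searched on both strands. The TATA box TATAAA was found in front of *Vim* and of no other of the 9 genes, against 13.1% of all gene windows. CCAAT was found in 4 of 9 windows (34.3% of all), 3 times in that of *Fabp7*. TTGGC, which overlaps with CCAAT where the letters read ATTGGC, was in 6 of 9 windows (40.3% of all), CANNTG in 5 (65.2%) and GGGCGG in 6 (32.4%). TTCNNNGAA was in none of the 9 (7.52% of all). The *Gfap* window printed above holds none of these 6 motifs, which says only that these letters do not occur in these 250 bases.

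The filament genes *Gfap* and *Vim* lay far apart in level in both groups. *Gfap* (ENSRNOG00000002919) was not counted once in any of the 6 gmASTR libraries, where a count of 0 allows up to 0.610 CPM in the shallowest library (3 counts). In wmASTRs it was counted 8 to 60 times per library, or 1.39 CPM at the lowest, 1.88 at the median and 10.6 at the highest. All wmASTR cultures thus lay above all gmASTR cultures, but close to the floor, and wmASTR replicate 4 alone held 51.7% of the 116 *Gfap* counts. The difference was called (quasi-likelihood FDR = 0.00190; 0.0156 without wmASTR replicate 4). Measured against a floor of 0.610 CPM per library, the mean of 3.29 ± 3.59 CPM (SD, n = 6) in wmASTRs was at least 5.40-fold higher, and at least 3.02-fold higher without wmASTR replicate 4. Checked against the label astrocyte, the transcript of this classical marker was absent from the counts of every gmASTR library and rare in the wmASTR libraries. This does not speak of the protein. By Western blot the paper detected GFAP protein in both kinds of culture, with less in gmASTRs. It names low expression of a splice variant in gmASTRs as the most likely reason for that difference.

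*Vim* (ENSRNOG00000018087) was among the most abundant transcripts of both cultures, above 99.8% of the genes tested in gmASTRs and 99.7% in wmASTRs. It ranged from 2590 over a median of 2823 to 3274 CPM in gmASTRs and from 2171 over 2375 to 2439 CPM in wmASTRs. Every gmASTR culture was above every wmASTR culture, and the spread was narrow, with 2884 ± 236 against 2353 ± 96.5 CPM (SD, n = 6 each). The difference did not pass the test (log2FC 0.23, SE 0.099, quasi-likelihood FDR = 0.159), whereas limma-voom called it (log2FC 0.22, FDR = 0.0342). In each wmASTR library 0.594 to 4.33 *Gfap* counts were found per 1000 *Vim* counts, with a median of 0.786 and a mean of 1.38 ± 1.46, and none in any gmASTR library, a separation that follows from the absence of *Gfap* counts there. The mean fell to 0.796 without wmASTR replicate 4.

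Of the 12 intermediate filament genes listed beside them, 3 have a name in these data. *Des*, which encodes the desmin of muscle and pericytes, was higher in wmASTRs, with 3.99, 22.8 and 214 CPM as lowest, median and highest value against 0, 2.06 and 7.11 CPM in gmASTRs (log2FC -4.65, SE 0.76, quasi-likelihood FDR = 0.000169). Its groups overlapped, and its highest value, like that of *Gfap*, was in wmASTR replicate 4. Without that culture its log2FC was -3.46, and limma-voom did not call it (FDR = 0.172). *Krt8*, a keratin (log2FC 1.24, SE 0.53, FDR = 0.155), and *Lmnb1*, a lamin (log2FC 0.84, SE 0.31, FDR = 0.0993), were not called. *Krt8* was called higher in gmASTRs without gmASTR replicate 5 (FDR = 0.0280) or without wmASTR replicate 4 (log2FC 1.78, FDR = 0.0353).

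The endfoot gene *Aqp4* (ENSRNOG00000016043) was counted 4 and 2 times in gmASTR replicates 1 and 4 and not at all in the other 4 gmASTR libraries. In wmASTRs it was counted 13 to 31 times, which is 2.36, 3.65 and 5.10 CPM as lowest, median and highest value. All wmASTR cultures were above all gmASTR cultures, the highest of which had 0.813 CPM. The means were 0.200 ± 0.338 and 3.69 ± 1.30 CPM (SD, n = 6 each), an 18.5-fold difference that was called (log2FC -4.19, SE 1.10, quasi-likelihood FDR = 0.0159). Since the gmASTR mean rests on 6 counts, the fold is uncertain, and without gmASTR replicate 1 it was 47.8 (log2FC -5.39).

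*Mlc1*, a membrane protein of the perivascular endfeet, had a like distribution, with 4 counts over all gmASTR libraries and 0.499, 3.43 and 8.10 CPM as lowest, median and highest value in wmASTRs (log2FC -4.85, SE 1.09, quasi-likelihood FDR = 0.00445). Without gmASTR replicate 1 its log2FC was -5.51. *Dmd*, whose product dystrophin anchors membrane complexes in endfeet and in muscle, differed the other way, with 54.7 ± 20.3 CPM in gmASTRs and 27.6 ± 5.35 in wmASTRs (log2FC 0.92, SE 0.22, quasi-likelihood FDR = 0.00841). These are the 2 of 11 listed aquaporin and endfoot genes that have a name here, so the endfoot apparatus as a whole was not measured.

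*Fabp7* (ENSRNOG00000000814) separated the cultures as *Gfap* and *Aqp4* did, with more counts. It was counted 0 to 10 times per gmASTR library (0, 0.396 and 1.57 CPM as lowest, median and highest value) and 36 to 117 times per wmASTR library (5.27, 15.0 and 21.1 CPM). No culture of one group reached the range of the other. The means of 0.518 ± 0.554 and 13.8 ± 7.00 CPM (SD, n = 6 each) differed 26.7-fold (log2FC -4.73, SE 0.64, quasi-likelihood FDR = 2.20e-05). Without gmASTR replicate 3, which holds 10 of the 18 gmASTR counts, the fold was 45.0 (log2FC -5.49). No other fatty acid binding protein has a name in these data.

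Counts of *Gfap*, *Aqp4* and *Fabp7* together came to 0 to 10 per gmASTR library and to 65 to 206 per wmASTR library. The lowest wmASTR sums, 65 and 66 counts, were in replicates 3 and 2, and the highest was in replicate 4. In wmASTRs the 3 genes did not keep a fixed ratio: replicate 6 had the highest *Fabp7* of all cultures (21.1 CPM) but 1.49 CPM of *Gfap* and 2.42 CPM of *Aqp4*, both below their group medians.

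**Figure D2:**
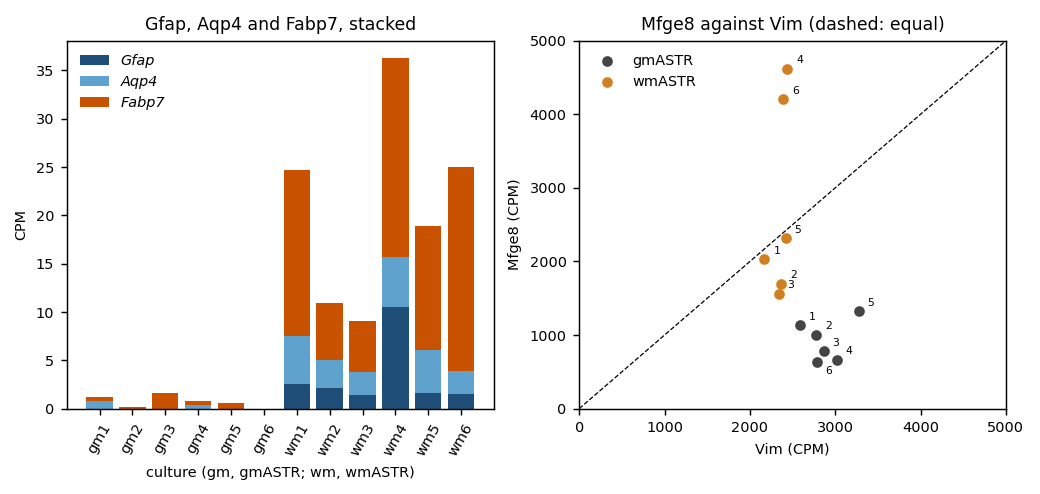
Left, stacked CPM of *Gfap*, *Aqp4* and *Fabp7* in each of the 12 cultures, on a linear axis from 0. Right, CPM of *Mfge8* against *Vim* in each culture (digits are replicate numbers, the dashed line marks equal levels). The stack stays below 2 CPM in every gmASTR culture and reaches 36.3 CPM in wmASTR replicate 4, and wmASTR replicates 4 and 6 lie above the dashed line.

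*Slc1a3* (ENSRNOG00000016163), the glutamate transporter, was detected in all 12 cultures. It had 2.71, 9.10 and 12.7 CPM as lowest, median and highest value in gmASTRs and 11.5, 21.2 and 35.5 CPM in wmASTRs. The groups overlapped in 1 pair of cultures, gmASTR replicate 5 (12.7 CPM) and wmASTR replicate 2 (11.5 CPM), and 35 of 36 pairs had more in the wmASTR culture. The means of 8.21 ± 4.03 and 21.3 ± 8.46 CPM (SD, n = 6 each) differed 2.59-fold (log2FC -1.42, SE 0.36, quasi-likelihood FDR = 0.0128). This call rests in part on wmASTR replicate 1, the highest culture, without which the log2FC was -1.22 and the FDR 0.0512. *Slc1a2*, the other glial glutamate transporter, and the rest of the 9 listed genes of glutamate handling have no identifier paired with a name and were not analysed here.

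*Slc4a4* (ENSRNOG00000003134) was the most abundant of the genes that were neither *Vim* nor *Mfge8* in gmASTRs. Its values in gmASTRs were 26.1, 95.8 and 146 CPM (lowest, median and highest) and in wmASTRs 5.10, 15.4 and 35.8 CPM. The groups overlapped in 1 pair of cultures, gmASTR replicate 5 (26.1 CPM) and wmASTR replicate 3 (35.8 CPM), and the next lowest gmASTR culture had 68.3 CPM. With means of 92.9 ± 45.6 and 17.9 ± 10.7 CPM (SD, n = 6 each) it was 5.17-fold higher in gmASTRs (log2FC 2.28, SE 0.34, quasi-likelihood FDR = 6.52e-05). *Slc4a10*, which also carries sodium and bicarbonate and is the 1 of 10 further bicarbonate and pH genes with a name, had 0, 8.25 and 36.5 CPM in gmASTRs and 0, 0.0694 and 2.76 CPM in wmASTRs (lowest, median and highest). It was called with overlapping groups (log2FC 3.90, SE 1.04, quasi-likelihood FDR = 0.0172), but not without gmASTR replicate 4 (log2FC 3.14, FDR = 0.105). DESeq2 (FDR = 0.0826) and limma-voom (FDR = 0.133) did not call it, and without wmASTR replicate 1 its log2FC was 4.94.

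Some markers of leptomeningeal cells were low or high in the same cultures as *Slc4a4*, and others were not. Of the 11 with a name, 6 had their lowest gmASTR value in replicate 5 (*Cdh1*, *Cldn11*, *Foxc1*, *Foxc2*, *Foxd1* and *Igf2*), whereas *Aldh1a2* had its highest there (47.2 CPM), and 7 had their highest wmASTR value in replicate 3. *Cdh1* and *Cldn11* are given in full and were singled out after their values were seen. *Cdh1*, which encodes the E-cadherin of the arachnoid and other epithelia, had 87.3 CPM in gmASTR replicate 5, where *Slc4a4* was lowest in its group, and 811 to 1315 CPM in the other gmASTR cultures. In wmASTR replicate 3, where *Slc4a4* was highest in its group, *Cdh1* had 114 CPM, against 0.831 to 26.0 CPM in the other wmASTR cultures. *Cldn11*, a tight junction claudin of arachnoid and oligodendrocytes, had 112 CPM and 79.4 CPM in these 2 cultures, the highest of the wmASTR group in the second case and the lowest of the gmASTR group in the first. Both genes were called higher in gmASTRs (log2FC 5.00, SE 0.74, and 5.97, SE 0.65, quasi-likelihood FDR = 5.89e-05 and 1.36e-06; 6.56 and 6.64 without wmASTR replicate 3). The part of such cells in the *Slc4a4* difference was not tested.

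*Aldoc* (ENSRNOG00000011452) was detected in all 12 cultures at a low level. It had 13.5, 19.4 and 33.8 CPM in gmASTRs and 6.08, 12.8 and 20.7 CPM in wmASTRs (lowest, median and highest). The gmASTR culture was higher in 31 of 36 pairs, but the groups overlapped, with means of 20.8 ± 7.26 and 12.7 ± 4.77 CPM (SD, n = 6 each). The difference did not pass the test (log2FC 0.64, SE 0.29, quasi-likelihood FDR = 0.178). None of the 13 listed aldolases and glycolytic genes has a name here.

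*Fgfr3* (ENSRNOG00000016818) had 0, 3.84 and 6.44 CPM in gmASTRs and 0.139, 1.66 and 3.50 CPM in wmASTRs (lowest, median and highest). The groups overlapped, as gmASTR replicates 3 (no count) and 4 (2.13 CPM) lay below wmASTR replicates 1 (3.50 CPM) and 4 (3.34 CPM), and the gmASTR culture was higher in 28 of 36 pairs. With means of 3.75 ± 2.46 and 1.80 ± 1.42 CPM (SD, n = 6 each) no difference was detectable at this depth (log2FC 1.00, SE 0.88, quasi-likelihood FDR = 0.517).

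Of the 14 listed receptors, ligands and targets of the fibroblast growth factor pathway, 3 further genes have a name. *Fgfr1*, the broadly expressed receptor, was at 36.0 ± 10.1 CPM in gmASTRs and 19.9 ± 5.87 in wmASTRs, a higher level than that of *Fgfr3* in both groups. It was called (log2FC 0.77, SE 0.23, quasi-likelihood FDR = 0.0343), but not when any 1 of 7 of the 12 libraries was left out, where the FDR was up to 0.0977. The ligands went opposite ways without overlap. *Fgf1* had 11.7, 16.1 and 25.3 CPM in gmASTRs against 5.49, 7.95 and 8.66 CPM in wmASTRs (lowest, median and highest; log2FC 1.17, SE 0.31, quasi-likelihood FDR = 0.0154; 0.0539 without gmASTR replicate 4). *Fgf2* had 0, 0 and 1.42 CPM against 2.03, 5.37 and 8.31 CPM (log2FC -3.88, SE 0.98, quasi-likelihood FDR = 0.0124; log2FC -4.92 without gmASTR replicate 1).

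*Mfge8* (ENSRNOG00000017510) was, after *Vim*, the most abundant of the 9 genes in gmASTRs and had the highest mean of all 9 in wmASTRs. It had 640, 890 and 1324 CPM in gmASTRs and 1562, 2172 and 4617 CPM in wmASTRs (lowest, median and highest). No cultures overlapped, and the wmASTR group spread widely, with replicates 4 (4617 CPM) and 6 (4204 CPM) well above the other 4 (1562 to 2315 CPM). The means of 924.3 ± 275 and 2737 ± 1329 CPM (SD, n = 6 each) differed 2.96-fold (log2FC -1.63, SE 0.24, quasi-likelihood FDR = 6.23e-05). Per *Vim* count, 0.221 to 0.438 *Mfge8* counts were found in gmASTRs and 0.668 to 1.89 in wmASTRs. *Gulp1*, an engulfment adaptor (log2FC 0.50, SE 0.26, FDR = 0.233), and *Edil3*, which like Mfge8 bridges phosphatidylserine and integrins (log2FC 2.09, SE 0.73, FDR = 0.0820), are the 2 of 13 listed phagocytic genes with a name, and edgeR called neither. DESeq2 called *Edil3* (FDR = 0.0254), as did edgeR without wmASTR replicate 6 (log2FC 2.71, FDR = 0.0327).

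**Figure D3:**
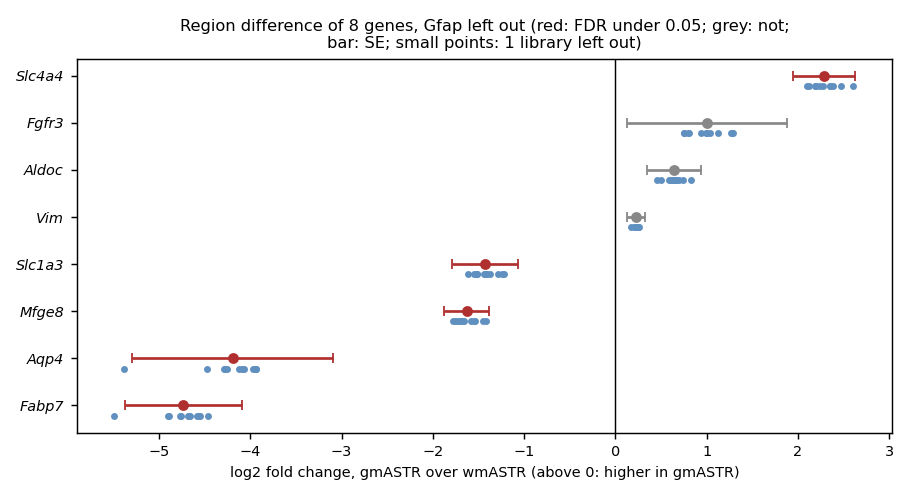
log2FC (gmASTR over wmASTR) of 8 of the 9 genes, with the SE as bar. Red marks genes with an FDR below 0.05 and grey the others, and small blue points are the log2FC with each of the 12 libraries left out in turn. *Gfap* is not drawn since its fitted log2FC depends on the prior count. *Slc4a4* is the one red gene on the gmASTR side, and no point of any gene crosses 0.

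The order of the 9 genes by mean level differed between the cultures. In gmASTRs it was *Vim*, *Mfge8*, *Slc4a4*, *Aldoc*, *Slc1a3*, *Fgfr3*, *Fabp7*, *Aqp4* and *Gfap*, and each neighbouring pair down to *Slc1a3* and *Fgfr3* stood in this order in 6 of 6 cultures. The last places were not separated: *Fabp7* exceeded *Aqp4* in 3 of 6 cultures and *Aqp4* exceeded *Gfap* in 2. In wmASTRs the means ran *Mfge8*, *Vim*, *Slc1a3*, *Slc4a4*, *Fabp7*, *Aldoc*, *Aqp4*, *Gfap* and *Fgfr3*. There *Mfge8* exceeded *Vim* in 2 of 6 cultures, and *Slc1a3*, *Slc4a4*, *Fabp7* and *Aldoc* (means of 21.3, 17.9, 13.8 and 12.7 CPM) followed each other in this order in 3, 3 and 4 of 6 cultures, so that these 4 were not separated. *Vim* and *Mfge8* made up 95.3 to 98.7% of the summed CPM of the 9 genes in gmASTRs and 98.0 to 98.9% in wmASTRs. The other 7 genes summed to 61.4 to 167 CPM and 51.4 to 81.8 CPM.

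Some cultures were extreme for several of the genes. Among gmASTRs, replicate 5 was highest for *Slc1a3*, *Fgfr3*, *Vim* and *Mfge8* and lowest for *Slc4a4*. Among wmASTRs, replicate 4 was highest for *Gfap*, *Aqp4*, *Vim* and *Mfge8* and lowest for *Slc4a4*, and replicate 3 was lowest for *Gfap*, *Aqp4*, *Fgfr3*, *Fabp7* and *Mfge8* and highest for *Aldoc* and *Slc4a4*. Without gmASTR replicate 5, also *Slc1a3* and *Slc4a4* had no overlap between groups, so that 7 of the 9 genes were separated, beside 7.85% of all genes. Leaving out gmASTR replicate 5 and wmASTR replicate 4 together, which was chosen after the values were seen, gave the same 7 genes (8.85% of all genes).

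Of the 9 genes, 3 had a mean of at least 20 CPM over all cultures, and for these the named genes with the most alike deviations from the group means were sought (Pearson's r of log2(CPM + 1) over 12 libraries, given without a test, among 727 named genes; all values of a library share its depth and its mixture of cells). *Slc4a4* was most like *Atp2b4*, a calcium pump (r = 0.96), and *Tmeff2*, a transmembrane protein (r = 0.95). *Tmeff2* had 3.98 CPM in gmASTR replicate 5 against a group mean of 38.3, as *Slc4a4* was low there. Among the named genes most like *Mfge8* were *Fstl3*, a follistatin-like secreted protein (r = 0.87), and *Bdnf*, a neurotrophin (r = 0.85). For *Vim* the values were lower, with *Fbln5*, an elastic fibre protein (r = 0.84), *Itm2a* (r = 0.81) and *Marcks*, an actin-binding substrate of protein kinase C (r = 0.80), and for *Itm2a* the likeness was mostly within gmASTRs (r = 0.92 against 0.18 within wmASTRs).

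Among 39 further astrocyte markers, 9 have a name, and 2 were called in each direction. *Gjb2*, a connexin of astrocytes and also of leptomeninges, was higher in gmASTRs (55.5, 89.9 and 191 CPM as lowest, median and highest value against 9.32, 17.6 and 33.4 CPM; log2FC 2.45, SE 0.29, quasi-likelihood FDR = 3.87e-06), as was *Id3*, an inhibitor of basic helix-loop-helix factors (log2FC 0.47, SE 0.13, FDR = 0.0238; up to 0.0820 without gmASTR replicate 4, wmASTR replicate 4 or wmASTR replicate 6). *S1pr1*, a sphingosine phosphate receptor, was higher in wmASTRs without overlap (log2FC -2.17, SE 0.56, FDR = 0.0136; 0.0756 without wmASTR replicate 4 and 0.0706 by limma-voom), as was *Mlc1*. *Gja1*, the main astrocytic connexin, was higher in mean level than *Vim* in both groups, with 4789 ± 627 and 4366 ± 1241 CPM, and did not pass the test (log2FC 0.076, SE 0.16, FDR = 0.830). In wmASTR replicate 4 the order was reversed, with 2212 CPM of *Gja1* and 2439 CPM of *Vim*. *Apoe*, *Fzd2*, *Gpc3* and *Maob* were not called, though *Apoe* was called higher in wmASTRs without gmASTR replicate 5 (log2FC -0.87, FDR = 0.000248). It was also called with the replicate number as a block (log2FC -0.60, FDR = 0.0188). Of 17 glial transcription factors, 6 have a name and 1 was called, *Id1* (log2FC 0.78, SE 0.15, FDR = 0.000808, higher in gmASTRs), whereas *Sox2*, a factor of neural progenitors and glia, narrowly missed the threshold in the direction of wmASTRs (log2FC -3.82, SE 1.21, FDR = 0.0529; 0.0251 without gmASTR replicate 5, 0.00511 by DESeq2). *Id4*, from the same family as *Id1*, was not called (log2FC 0.87, SE 0.30, FDR = 0.0749), but was called higher in gmASTRs without gmASTR replicate 2 (FDR = 0.0464), gmASTR replicate 5 (FDR = 0.0120) or wmASTR replicate 1 (FDR = 0.0249). These shares have to be read against the 29.4% of all 2095 named genes that were called (22.4% higher in gmASTRs and 6.97% higher in wmASTRs), since names are known mostly for genes with a large or positive log2FC.

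Markers of other cells differed between the groups too, and over all lists 37 of 62 named genes were called, 19 with more transcript in gmASTRs and 18 in wmASTRs. Of 20 leptomeningeal markers, 11 have a name, with 6 called to the gmASTR side and 1 to the wmASTR side and a summed level of 3250 to 8742 CPM in gmASTRs and 1267 to 2228 CPM in wmASTRs. Without wmASTR replicate 3, 8 were called to the gmASTR side, and without gmASTR replicate 3, 5. With the replicate number as a block, *Aldh1a2* (FDR = 0.00553), *Crabp2* (FDR = 0.00394), *Igf2* (FDR = 0.00937) and *Tbx18* (FDR = 0.0370) were also called higher in gmASTRs. Of 11 microglia markers, 6 have a name and 5 were called higher in wmASTRs, with sums of 5.99 to 60.8 and 93.5 to 306 CPM. Without wmASTR replicate 4, 3 of the 5 were called, as *Aif1* (FDR = 0.103) and *C1qb* (FDR = 0.126) were not. *Aif1* was also not called without wmASTR replicate 1 (FDR = 0.0659) or with the replicate number as a block (FDR = 0.0503). The 2 named choroid plexus markers of 8 were both higher in wmASTRs (0.157 to 4.55 against 7.81 to 382 CPM), as was the 1 named pericyte and smooth muscle marker of 8, *Myh11* (26.4 to 165 against 361 to 729 CPM). Of the choroid plexus markers, *Enpp2* was not called without wmASTR replicate 4 (FDR = 0.0520) or 6 (FDR = 0.0537). *Ttr* was not called by limma-voom (FDR = 0.144), and its wmASTR mean was 93.4 CPM with and 37.0 CPM without wmASTR replicate 1. Of 8 oligodendrocyte markers, 4 have a name, and *Mbp* and *Mag* were called higher in wmASTRs and *Cldn11*, shared with the leptomeningeal list, higher in gmASTRs. Of 7 cycling genes 4 were called higher in gmASTRs (sums of 291 to 882 against 187 to 324 CPM). The remaining lists had 1 called of 1 named ependymal marker (higher in gmASTRs), none of 2 endothelial markers, 1 of 2 oligodendrocyte progenitor markers (higher in wmASTRs), and 2 of 2 neuronal markers (1 each way). Other list calls that rested on single libraries were these: *Rarres2* (ependymal) was not called without gmASTR replicate 4 or 6, *Tubb3* (neuronal) without wmASTR replicate 4, and *Ptgds*, the leptomeningeal marker called to the wmASTR side, without wmASTR replicate 1 or 4. *Foxc2*, 1 of the 6 leptomeningeal markers on the gmASTR side (FDR = 0.0412), was not called when any 1 of 7 libraries was left out (FDR up to 0.107) or by limma-voom (FDR = 0.0907). limma-voom also did not call *Aif1* (FDR = 0.0853), *Ptgds* (FDR = 0.05003) or *Cspg4*, the called gene of the progenitor list (FDR = 0.0611). The log2FC of *Cspg4* was -1.92 by edgeR, and -1.21 without gmASTR replicate 5 and wmASTR replicate 4. Its highest value was in wmASTR replicate 4 (199 CPM), as was that of *Myh11* (729 CPM). *Pdgfra*, the other named gene of the progenitor list, was not called (FDR = 0.392). None of the named markers was at 0 in all libraries of a group. The part of these cells in the differences of the 9 astrocyte genes was not tested.

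**Figure D4:**
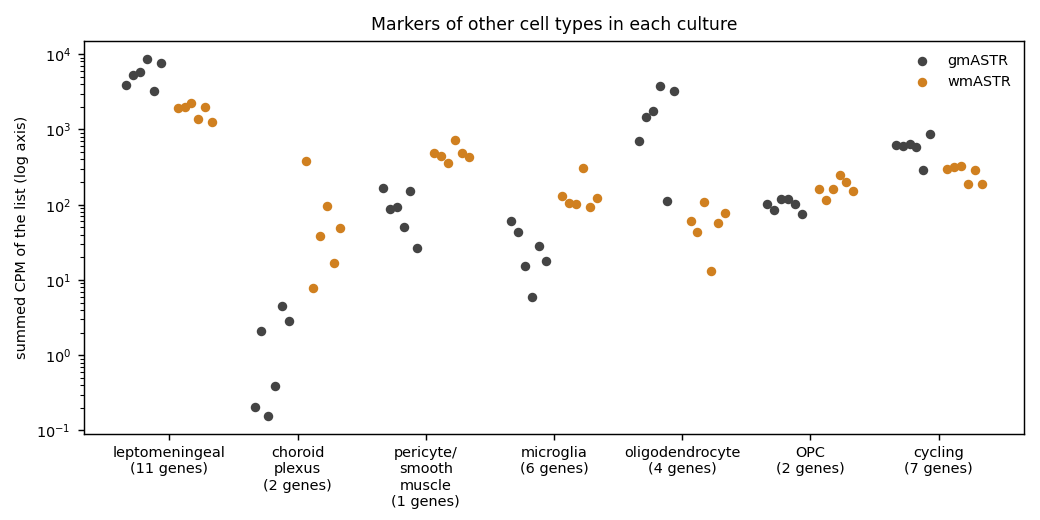
Summed CPM (log axis) of the named genes of 7 marker lists in each of the 6 gmASTR (grey) and 6 wmASTR (orange) cultures, with the number of genes in each sum. Each point is a culture. The leptomeningeal sums are all higher in gmASTRs and the choroid plexus, pericyte and microglia sums all higher in wmASTRs, and the oligodendrocyte sum is driven by *Cldn11*.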

How the data were processed

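RNA of 12 astrocyte cultures (6 gmASTR, 6 wmASTR) was measured by 3′ sequencing. Per the submitters' processing notes, HISAT (0.1.5), SAMtools (1.2) and HTSeq were used. The authors deposited raw read counts per gene, not normalized, for 17941 genes, and a second table with the 9394 of them that their low-count filter kept. The submitters' processing notes name a mouse build and the paper's methods a rat genome, and no coordinates of that alignment are given here. Strand was not used in counting, and no source mentions molecular identifiers, so floors cover counting error only.

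CPM values were computed here as the count over the library total. Region was tested by the quasi-likelihood method of edgeR (4.0.16; R 4.3.3) after TMM scaling, with no other term in the model, a prior count of 0.125, and all genes with at least 1 count. It was also run on simulated counts in which only genes well above the detection floor were changed, so that this run does not cover genes near 0. Alternatives used limma (3.58.1) and DESeq2 (1.42.0), other scalings and filters, each library left out, and the replicate number as a block. Tables, promoter windows and figures were made with Python (3.11.15), pandas (2.3.3), scipy (1.17.1) and matplotlib (3.10.9). No libraries agreed within sampling noise.

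Names were read from the spreadsheet published with the paper, where 2010 have an Ensembl identifier in the same row and 85 were matched through 12 CPM values (*Gfap*, *Slc1a3*, *Vim* and *Mfge8* among them). Members and lists were chosen with earlier results of these data known. Genes named are the 9 members, up to 4 called genes per list by smallest FDR, listed paralogs, and the 3 most alike genes, of which some are not reported here. Genes not called, other markers and technical examples were named after their values were seen. Replicate numbers shared by the groups were not taken as pairs, as the labels do not say what they mark.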

Additional observations from a re-analysis of the deposited data

Results flagged for a closer look

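Of 17 combinations of a gene and a group that were examined for a culture far from the other 5, and of the same check on the *Gfap* to *Vim* ratio, 3 stood out by Dixon's criterion, which chance meets in about 1 in 20 groups. *Gfap* was at 10.6 CPM in wmASTR replicate 4, with the nearest wmASTR culture at 2.58 CPM. The same culture had 4.33 *Gfap* counts per 1000 *Vim* counts, with the nearest at 1.19. *Fabp7* was at 1.57 CPM in gmASTR replicate 3, with the nearest gmASTR culture at 0.568 CPM, and this culture still lay below every wmASTR culture.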

How the results depend on the processing

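Called genes numbered 973 to 1626 (410 to 720 higher in gmASTRs and 542 to 906 higher in wmASTRs) when single libraries, or gmASTR replicate 5 and wmASTR replicate 4 together (a choice made after seeing the data), were left out, the 9 genes called 5 to 6 (1 higher in gmASTRs throughout, 4 to 5 higher in wmASTRs), the separated genes 5 to 7 and the called list genes 29 to 43 (14 to 23 and 12 to 20). The *Gfap* counts per 1000 *Vim* counts differed by -1.54 to -0.796. With the genes of the authors' filter alone, 3 of the 9 were called, 2 of them higher in wmASTRs, since 4 of the 9 are not in it, and 24 list genes, 6 of them higher in wmASTRs. limma-voom called 2 of the 9 genes higher in gmASTRs, with *Vim* added. *Slc1a3* lost its call without wmASTR replicate 1. The 9 genes kept their direction under every alternative run. In the fit with a replicate block, 1301 genes, 6 of the 9 and 41 list genes were called. The *Gfap* to *Vim* ratio has no informative permutation p, as all gmASTR values are 0. Same-numbered cultures correlated at -0.133 to 0.0641 in their deviations from the group means, and 1 of 6 correlated best with its own number. This cannot exclude that equal numbers share an animal. The numbers were not taken as pairs because the labels do not say what they mark. The ratio of *Gfap* to *Vim* and *Nes* together was not run, as *Nes* has no identifier paired with a name. Depth limits *Gfap*, *Aqp4*, *Fgfr3* and gmASTR *Fabp7*, which rest on few counts.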
